A study of Mus musculus with 16 samples.

Results

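Contractile smooth muscle cells of the artery wall shorten when myosin motors pull on actin filaments, and they keep a set of proteins for that work that few other cells make in quantity. Calcium entering the cell switches on myosin light chain kinase, which phosphorylates the regulatory light chain and so lets the myosin heavy chain cycle along actin. Myocardin and serum response factor drive many of these genes together through a DNA element called the CArG box, and smooth muscle cells that leave the contractile state in atherosclerosis are known for losing them. The 10 genes described here are Myh11, Myl9 and Mylk of the myosin motor and its switch, Acta2, Tagln, Cnn1, Lmod1 and Smtn of the actin filament, Synpo2 of the dense bodies, and the coactivator Myocd. They were chosen by name as the contractile programme of smooth muscle, with earlier results of these data known. Each was followed in the locus with the highest mean FPKM among the loci naming it. The 10 genes are among 66889 loci that name a gene, out of 70603 in all, and all 10 were among the 24091 loci tested.

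RNA was sequenced from the aorta, labelled as blood vessel, of mice without apolipoprotein E (ApoE-/-), a strain that forms lipid-rich plaques. The mice were 8 weeks old when the diets began. One group received a normal purified diet for 6 weeks and one a Western diet, rich in fat, for the same time, and 2 further groups received these diets for 22 weeks, so that the mice reached 14 and 30 weeks of age. Each group had 4 libraries, 16 in all. All groups carried the same genotype, which a label field calls a knockdown of APOE, and no wild-type group was analysed here. Nothing in the labels says how many animals gave 1 library, so the spread between libraries may be technical in part.

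Library totals ran from 45253433 to 81397840 estimated counts, and the 10 genes took 0.489% to 1.56% of them. Markers of other cell types or tissues stood over 5 times their median library in 6 libraries. By summed counts scaled to library size (CPM), B cell markers reached 564 in normal-diet replicate 2 at 6 weeks and 1302 in normal-diet replicate 4 at 22 weeks, against a lowest library of 20.9. Thymocyte and T cell markers reached 581 in Western-diet replicate 1 at 6 weeks and 239 in Western-diet replicate 1 at 22 weeks, and nerve markers reached 637 in Western-diet replicate 2 at 6 weeks. Cardiac muscle markers reached 489 in normal-diet replicate 4 and 459 in Western-diet replicate 3 at 22 weeks, against 37.1 or less in every 6-week library. Of the marker genes, Tnnt2, Tnni3, Myl7, Myh2, Ms4a1 and Ptcra were too low to be tested. Counts of members are also given without these 6 libraries. The submitters' library codes begin with one prefix in all 6-week libraries and with another in all 22-week libraries, so time on diet, age and library series cannot be told apart.

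Short stretches of 2 members are shown because they hold the serum response element that the programme is known for. In the 250 bases before the RefSeq start, which the table gives for 7 of the 10 genes (GRCm38.p6), both strands were searched for the CArG box and for the same box with 1 C or G in its core. Each line gives the box in capitals with 10 bases on either side, 5′ to 3′ along the gene.
Acta2, 84 bases before the start, chr19:34255438-34255467, minus strand: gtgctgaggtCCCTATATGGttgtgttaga
Acta2, 34 bases before the start, chr19:34255388-34255417, minus strand: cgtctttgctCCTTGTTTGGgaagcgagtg
Myl9, 161 bases before the start, chr2:156775293-156775322, plus strand: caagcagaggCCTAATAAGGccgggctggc
Myl9, 99 bases before the start, chr2:156775355-156775384, plus strand: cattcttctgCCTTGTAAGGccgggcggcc
The Myl9 box at 161 bases was a full CArG box and the other 3 had the altered core. Both Acta2 boxes lay inside the first exon of a longer GENCODE transcript. No box was found in these windows of Cnn1, Smtn, Lmod1, Mylk and Synpo2. The Mylk window (chr16:34784700-34784949) lies inside the assembled Mylk locus, which starts at 34745210. The bases before the first base of that locus were not searched. Of all 32851 promoter windows of this length, 1.47% held a full box and 8.59% held a full or an altered one.

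Per base of transcript, smooth muscle α-actin led the programme. By deposited FPKM (counts scaled to library size and to an exon length for each locus), Acta2 averaged 1412 over the 16 libraries, from 534 to 2424. Myl9, the regulatory light chain, averaged 418, Tagln, the actin-binding protein SM22α, 326, and Myh11, the smooth muscle myosin heavy chain, 273 FPKM. Below these came Cnn1 (calponin, a brake on myosin) at 81.4, Smtn (smoothelin, an actin-binding marker of the contractile state) at 42.9, Mylk (the light chain kinase) at 28.8, Synpo2 (synaptopodin-2 of the dense bodies) at 13.6, Lmod1 (leiomodin, which nucleates actin filaments) at 10.2 and Myocd at 4.99 FPKM. The ranges over libraries overlapped between every pair of neighbours in this order except Myh11 and Cnn1, where the lowest Myh11 library (132 FPKM) lay above the highest Cnn1 library (116 FPKM). The FPKM of Myocd, Lmod1, Synpo2, Smtn and Mylk rest on loci assembled far beyond any single transcript. Member lengths were inferred from the deposited counts and FPKM and divided by 1.242. That was the median ratio of inferred to annotated length at 139 loci with 1 annotated transcript of 1 kb or more. The length behind the Myocd values came to 60.4 kb, which is 11.8 times its longest GENCODE transcript, and that of Lmod1 to 5.48, of Synpo2 to 3.93, of Smtn to 3.91 and of Mylk to 2.42 times. The same figure was 1.03 to 1.25 for the other 5 genes. By CPM of the whole locus per kilobase of the longest transcript, Acta2 still ranked first (1882) and Synpo2 was last (66.4). Tagln (500.1) stayed next after Myl9 (536), and Smtn (215) passed Cnn1 (125). Reads outside the longest transcript count in this measure and can raise it for Myocd, Lmod1, Synpo2, Smtn and Mylk. The order by reads of the transcript alone was not tested. Fold changes of 1 gene do not use the length behind the FPKM, but the median change of all loci with time differed with that length. For loci over 32 kb, such as those of Myocd and Synpo2, the median log2 change from 6 to 22 weeks was -0.19 on the normal and -0.26 on the Western diet. For loci of 4 to 8 kb it was 0.08 on both. The part of length in the members' values was not tested.

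On GRCm38, the locus of Myh11 was chr16:14194535-14291372 (minus strand), that of Myl9 chr2:156775420-156781658 (plus) and that of Mylk chr16:34745210-35002420 (plus). Acta2 lay at chr19:34241090-34255590 (minus), Tagln at chr9:45929619-45936058 (minus), Cnn1 at chr9:22099216-22109630 (plus), Smtn at chr11:3517523-3539292 (minus) and Lmod1 at chr1:135324807-135350994 (plus). Synpo2 lay at chr3:123076519-123236147 (minus) and Myocd at chr11:65170928-65269989 (minus). The coordinates run from the first to the last base of each assembled locus, introns included. Those of Lmod1 and Smtn stop short of the annotated gene ends, at 135368065 and 3540612.

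The question of the diet comparisons is whether the contractile programme differed between Western-diet and normal-diet aortas after 6 and after 22 weeks. No member passed at either time. The members leaned the same way, with lower values on the Western diet for 9 of 10 genes at 6 weeks and 10 of 10 at 22 weeks. The median change was -0.29 on the log2 scale at 6 weeks and -0.42 at 22 weeks, whereas the median of all loci tested was 0.00 and -0.03. The members were chosen with earlier results known and rose and fell together from library to library. Their shared direction is therefore a description and not 10 separate results. In bulk RNA, fewer smooth muscle cells and less RNA per cell cannot be told apart.

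**Figure D1:**
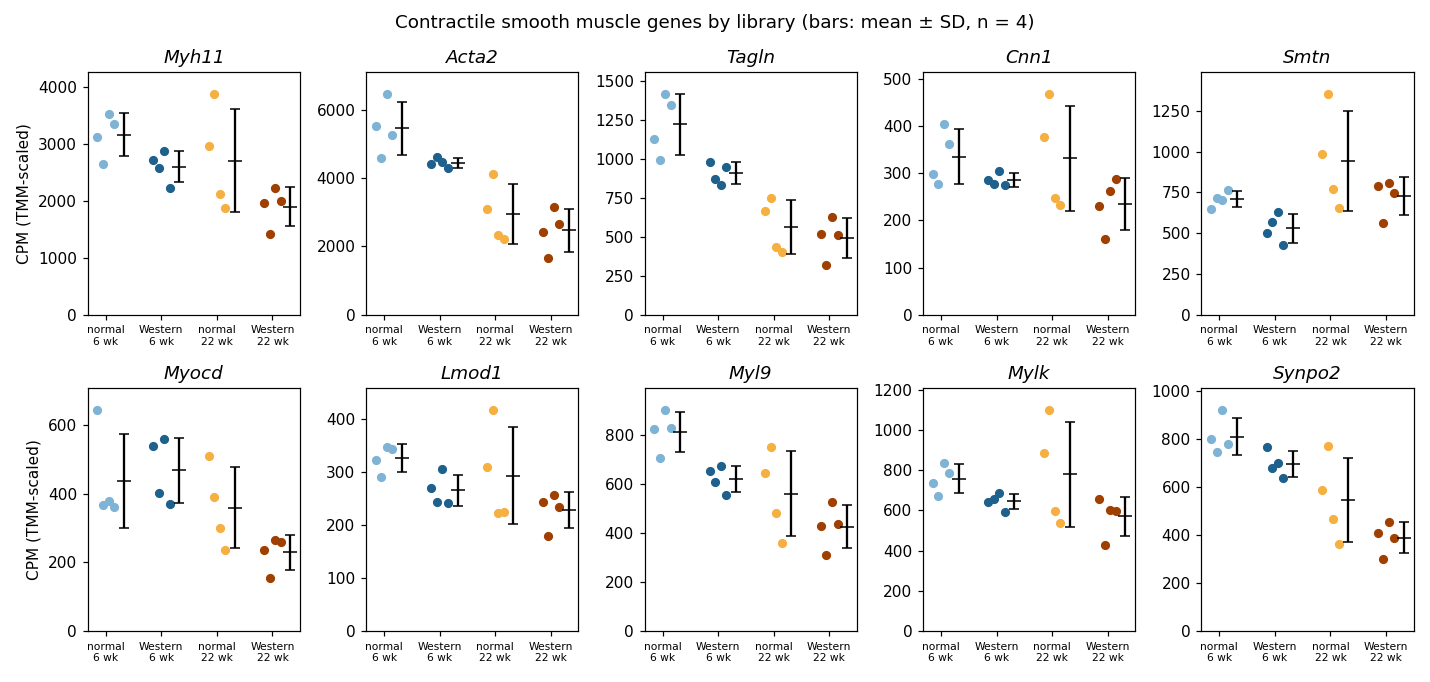
Points show the TMM-scaled CPM of each of the 10 genes in every library, by diet and weeks on diet, and black bars show the mean ± SD of the 4 libraries of a group. At 22 weeks the 4 normal-diet libraries of Myh11 spread from 1878 to 3886 CPM and the Western-diet libraries from 1415 to 2232 CPM.

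For the myosin motor, Myh11 stood at 3127, 2661, 3533 and 3363 CPM in the normal-diet and at 2722, 2578, 2887 and 2236 CPM in those fed the Western diet for 6 weeks. At 22 weeks it stood at 2964, 3886, 2130.1 and 1878 CPM on the normal and at 1969, 1415, 2232 and 2006 CPM on the Western diet. The groups overlapped at both times, and normal-diet replicates 3 and 4 at 22 weeks lay inside the Western-diet range. The log2 change with Western diet was -0.28 ± 0.21 (SE) at 6 weeks and -0.51 ± 0.21 at 22 weeks, with edgeR adjusted p of 0.713 and 0.276. Myl9 at 6 weeks stood at 823, 704, 901 and 826 CPM on the normal and at 652, 608, 673 and 553 CPM on the Western diet. Every Western-diet library of Myl9 was thus below every normal-diet library at 6 weeks, with a log2 change of -0.39 ± 0.20 that did not pass (edgeR adjusted p = 0.523). At 22 weeks Myl9 stood at 646, 751, 483 and 359 CPM on the normal and at 426, 312, 525 and 435 CPM on the Western diet, and the groups overlapped. Mylk changed by -0.23 ± 0.19 at 6 weeks and by -0.45 ± 0.19 on the log2 scale at 22 weeks, where its 4 normal-diet libraries ran from 537 to 1098 CPM and its Western-diet libraries from 428 to 654 CPM.

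Among the actin filament genes, Acta2 stood at 5514, 4589.6, 6466 and 5259 CPM on the normal and at 4401, 4629, 4477 and 4290.0 CPM on the Western diet at 6 weeks. At 22 weeks Acta2 stood at 3089.6, 4133, 2348 and 2211 CPM on the normal and at 2425, 1654, 3153 and 2648 CPM on the Western diet. The diet groups overlapped at both times, and all 8 libraries of 22 weeks lay below all 8 of 6 weeks. Tagln at 6 weeks stood at 1126, 996, 1417 and 1347 CPM on the normal and at 983, 873, 835 and 951 CPM on the Western diet, and the groups did not overlap. At 22 weeks Tagln stood at 665, 750.0, 436 and 403 CPM on the normal and at 519, 319, 629 and 514 CPM on the Western diet, where they overlapped. The log2 change of Tagln with Western diet was -0.42 ± 0.22 at 6 weeks (edgeR adjusted p = 0.527) and -0.19 ± 0.22 at 22 weeks. Without either normal-diet replicate 2 or Western-diet replicate 2 the 22-week value of Tagln was 0.0041 or 0.0075. Smtn at 6 weeks stood at 646, 715, 706 and 764 CPM on the normal and at 499, 567, 630.5 and 426 CPM on the Western diet, again without overlap, with a log2 change of -0.42 ± 0.20 (edgeR adjusted p = 0.474). Cnn1 and Lmod1 had 22-week log2 changes of -0.49 ± 0.22 and -0.36 ± 0.18, and their groups overlapped at both times. Without normal-diet replicate 2 these values were -0.26 and -0.12, and those of Myh11, Acta2, Smtn, Myl9, Mylk and Synpo2 lay between -0.27 and -0.024.

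Synpo2 stood at 586, 771, 466 and 363 CPM on the normal and at 409.7, 302, 455 and 389 CPM on the Western diet at 22 weeks, a log2 change of -0.49 ± 0.19 (edgeR adjusted p = 0.242). Normal-diet replicate 4 lay inside the Western-diet range. Myocd, the coactivator, was the only member without a lower value at 6 weeks. It stood at 644, 368, 381 and 360.3 CPM on the normal and at 539, 402, 561 and 371 CPM on the Western diet, a log2 change of 0.10 ± 0.25 that turned to -0.0024 without Western-diet replicate 3. At 22 weeks Myocd stood at 509.6, 391, 300.0 and 237 CPM on the normal and at 236, 155, 267 and 260.0 CPM on the Western diet, a log2 change of -0.65 ± 0.26 (edgeR adjusted p = 0.257). Its Western-diet libraries were all low, and normal-diet replicate 4 lay among them. Without normal-diet replicate 1 the 22-week value was -0.41. The difference of the 2 diet effects on Myocd was -0.74 ± 0.36 and did not pass (edgeR adjusted p = 0.438).

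**Figure D2:**
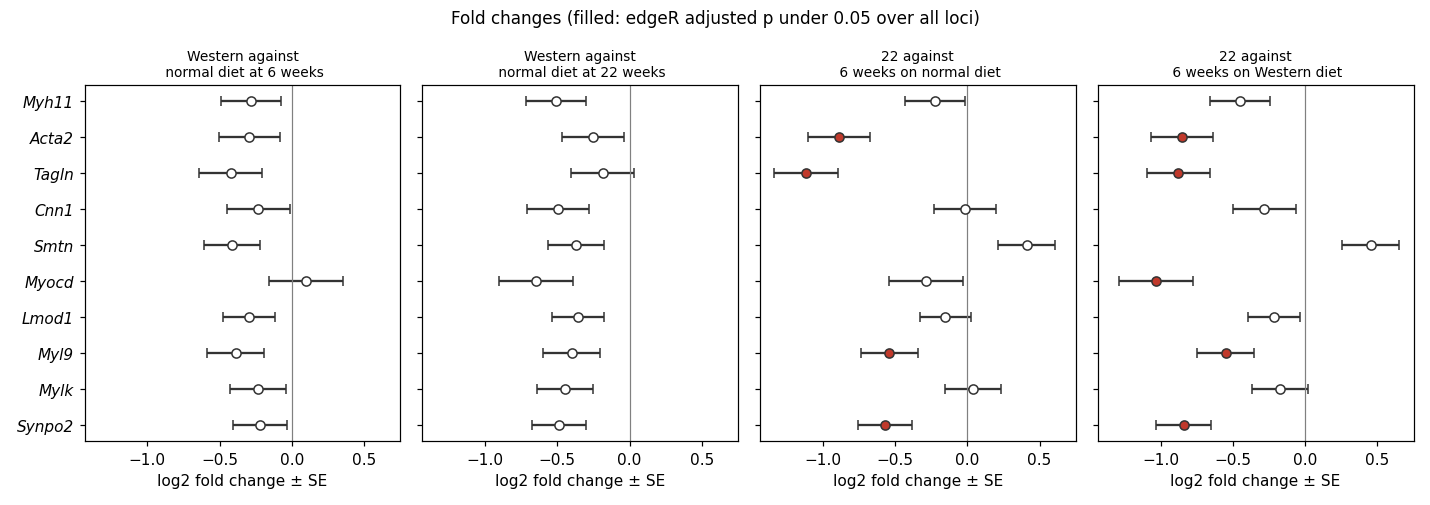
Points show the log2 fold change of each gene with its standard error in 4 comparisons, and filled points passed at an edgeR adjusted p under 0.05 over all loci. Diet effects lay left of 0 for all genes but Myocd at 6 weeks and none was filled, whereas 4 points on the normal diet and 5 on the Western diet were filled in the comparisons of time.

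Counted over the set, 0 of 10 members passed edgeR's test for diet at 6 weeks, where 0.282% of all loci passed, and 0 had an unadjusted p under 0.05, against 10.7% of loci. DESeq2 and limma also called 0 at 6 weeks, with 1 and 0 members at an unadjusted p under 0.05, and edgeR fitted on only these 2 groups gave 6. The groups did not overlap for 3 members, all lower (Tagln, Smtn and Myl9), against 4.2% of loci lower without overlap, and 49.5% of all loci had a negative value. At 22 weeks 0 of 10 passed, where 0.228% of loci passed, and 5 members (Myh11, Cnn1, Myocd, Mylk and Synpo2) had an unadjusted p under 0.05 by edgeR, against 14.3% of loci. DESeq2 and limma called 0 there, with 5 and 3 members unadjusted, and edgeR fitted on only these 2 groups gave 1. Leaving out normal-diet replicate 1, normal-diet replicate 2 or Western-diet replicate 2 of 22 weeks took the 5 to 0, and leaving out normal-diet replicate 4 took it to 8. No member was without overlap at 22 weeks, where 2.99% of loci were lower without overlap, and 53.9% of all loci were negative. For the difference of the diet effects 0 of 10 passed (0.183% of loci), 0 had an unadjusted p under 0.05 by edgeR (12% of loci), and 1 by DESeq2 and 0 by limma. The difference was negative for 7 of 10, against 54.9% of loci. The mean of both diet effects was negative for 10 of 10, from -0.40 for Myh11 to -0.27 for Acta2, where 51.2% of loci were negative. For that mean 0 passed (0.295% of loci), and 7 were under 0.05 unadjusted by edgeR and DESeq2 and 5 by limma, against 13.4% of loci by edgeR. Without the 6 libraries named above, 0 members passed for diet at either time, and the 22-week median was -0.72. Members with an unadjusted p under 0.05 then numbered 0 at 6 weeks, 8 at 22 weeks and 9 for the mean, and the difference was negative for 10 of 10. At 22 weeks this left Western-diet replicates 2 and 4, of which replicate 2 had the lowest member average of all libraries (-0.86). It took out normal-diet replicate 4, the lowest normal-diet library there (-0.49). The share of all loci with an unadjusted p under 0.05 was computed only for the edgeR fit over 16 libraries.

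The members rose and fell together from library to library, and the spread was widest at 22 weeks. The mean deviation of the 10 genes from their own averages was 0.37, 0.16, 0.49 and 0.38 on the log2 scale in the normal-diet libraries of 6 weeks and 0.14, 0.06, 0.20 and -0.05 in those on the Western diet. At 22 weeks it was 0.21, 0.48, -0.30 and -0.49 on the normal and -0.33, -0.86, -0.16 and -0.30 on the Western diet. By this average, normal-diet replicates 1 and 2 at 22 weeks lay with the 6-week libraries. Replicates 3 and 4 lay with the Western-diet libraries, and Western-diet replicate 2 was the lowest of all. Single genes differed: in normal-diet replicates 1 and 2 at 22 weeks Acta2 and Tagln lay below every 6-week library and Smtn above. Leaving out that normal-diet replicate 2 took the 22-week median diet change of the members to -0.21, and leaving out Western-diet replicate 2 took it to -0.28. Markers of brown fat, which surrounds the aorta, stood opposite to the members at both ends of this spread at 22 weeks. Their summed level at 22 weeks was 552, 727, 1445 and 1369 CPM in the normal-diet and 2163, 3728, 2032 and 1688 CPM in the Western-diet libraries, lowest in normal-diet replicates 1 and 2 and highest in Western-diet replicate 2. Between these ends the order was not kept: normal-diet replicate 4 (members -0.49) had a lower brown fat sum than Western-diet replicate 3 (members -0.16). General adipocyte markers were also lowest in normal-diet replicates 1 and 2 (1281 and 1340 CPM) and highest in Western-diet replicate 2 (2505 CPM) at 22 weeks. All 5 brown fat genes measured had an unadjusted p under 0.05 and a positive value for diet at 22 weeks, and Cox8b, a respiratory chain subunit of brown fat, passed (log2 change 1.65 ± 0.29, edgeR adjusted p = 0.0367). At 6 weeks the brown fat sum ran from 2426 to 3378 CPM on the normal and from 1713 to 3505 CPM on the Western diet. The members' averages in these 6-week libraries were -0.05 to 0.49. Macrophage markers summed to 757 to 1434 CPM on the normal and 1566 to 1987 CPM on the Western diet at 22 weeks, with 0 of 8 passing by edgeR and 2 at an unadjusted p under 0.05. Skeletal muscle markers summed to 46.4 CPM or less on the normal and 30.0 to 294 CPM on the Western diet, and 8 of 9 had an unadjusted p under 0.05 with a positive value, none passing by edgeR. The part of these tissues in the members' values was not tested.

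**Figure D3:**
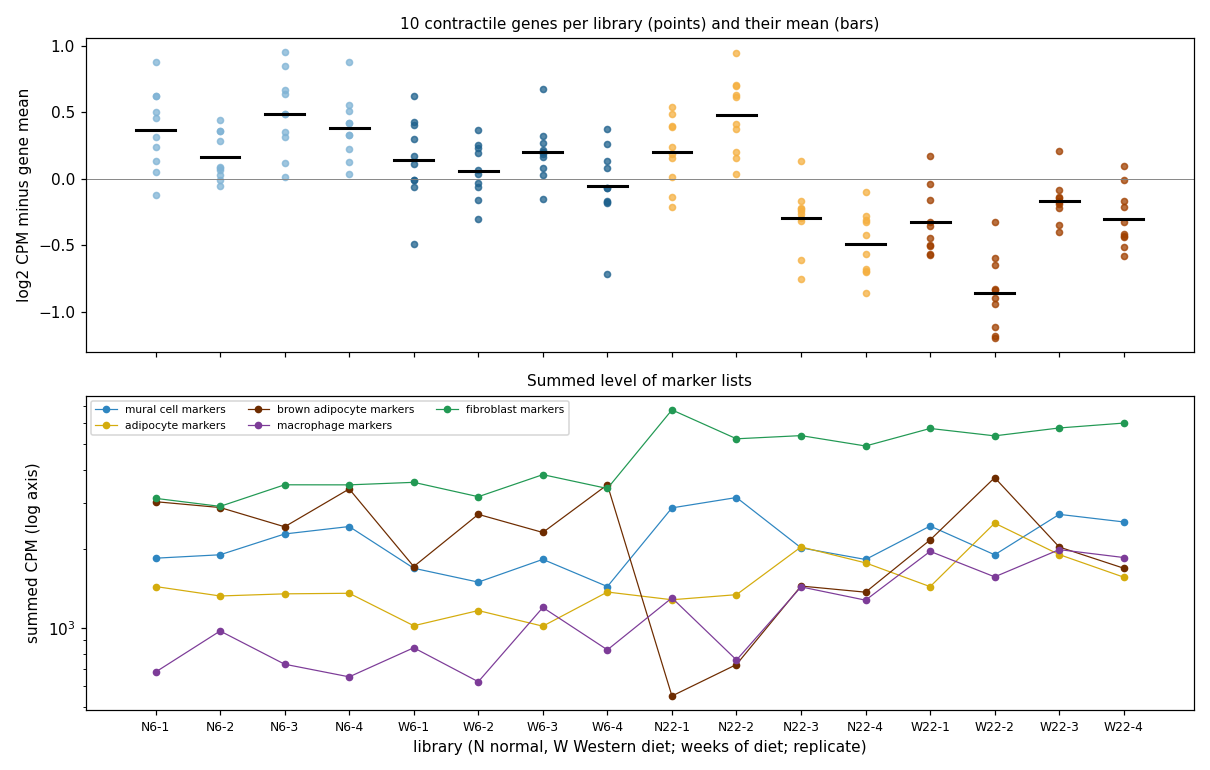
The upper panel shows, for each library, the log2 CPM of each of the 10 genes minus that gene's mean over 16 libraries, with their average as a bar. The lower panel shows the summed CPM of 5 marker lists on a log axis, where the brown fat markers (552 to 3728 CPM) were lowest in normal-diet replicates 1 and 2 at 22 weeks and highest in Western-diet replicate 2 at 22 weeks.

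The comparison of 22 with 6 weeks asks how the programme differed between the longer and the shorter feeding within a diet. The 22-week mice were also older (30 against 14 weeks) and their library codes begin with another prefix. Feeding time, age and library series cannot be told apart in any change with time given below. In this comparison the members parted. Acta2, Tagln, Myl9 and Synpo2 were lower at 22 weeks on both diets, Myocd was lower on the Western diet, Cnn1, Lmod1 and Mylk stayed within -0.28 to 0.04 on the log2 scale, and Smtn had positive values of 0.41 and 0.46 that did not pass. Values were negative for 8 of 10 members on the normal diet and 9 of 10 on the Western diet, against 49.2% and 51.1% of loci. On the normal diet 4 of 10 members passed, all lower, where 46.7% of all loci passed and 22.6% passed as lower. On the Western diet 5 of 10 passed, all lower, where 43.8% of loci passed and 21.9% as lower. With so many loci passing, these comparisons are described by which members moved and by how much.

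Tagln fell by 1.12 ± 0.22 on the log2 scale on the normal diet, from 1222 ± 195 to 563 ± 170.4 CPM (mean ± SD, n = 4 each; edgeR adjusted p = 0.000714). On the Western diet Tagln fell by 0.88 ± 0.22, from 910.5 ± 68.5 to 495 ± 129 CPM (n = 4 each; edgeR adjusted p = 0.00428). Acta2 fell by 0.89 ± 0.21 on the normal and by 0.85 ± 0.21 on the Western diet (edgeR adjusted p = 0.00327 and 0.00477). For both genes the groups did not overlap on either diet, and both passed without the 6 libraries named above. On the normal diet these 2 were the only members without overlap, against 21.9% of loci lower without overlap, and on the Western diet they were joined by Myh11, Myocd, Myl9 and Synpo2, against 20.4% of loci. Synpo2 fell by 0.57 ± 0.19 and 0.84 ± 0.19 (edgeR adjusted p = 0.0216 and 0.00215), and Myl9 fell by 0.54 ± 0.20 and 0.55 ± 0.20 (edgeR adjusted p = 0.0357 and 0.0348). The normal-diet call of Synpo2 and the Myl9 calls on both diets were narrow. The Western-diet call of Synpo2 held when any 1 library was left out (edgeR adjusted p from 0.000576 to 0.00982). Leaving out 1 library ended the normal-diet call of Synpo2 for 3 libraries (normal-diet replicate 3 at 6 weeks and replicates 3 and 4 at 22 weeks, lowest log2 size 0.42) and the Myl9 calls for 5 of 16 libraries on the normal and 7 of 16 on the Western diet. Fitted on only the 2 groups compared, Myl9 did not pass on the normal diet (-0.56, edgeR adjusted p = 0.0580), which left 3 members there. Without the 6 libraries named above, 2 members passed on the normal diet and 3 on the Western diet.

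Myocd fell by 1.03 ± 0.26 on the Western diet, from 468 ± 95.6 to 229 ± 51.5 CPM (n = 4 each; edgeR adjusted p = 0.00444), and without the 6 libraries that value was -1.18 and did not pass. On the normal diet its value was -0.29 ± 0.25, and it ran from -0.50 without normal-diet replicate 1 of 22 weeks to -0.040 without normal-diet replicate 1 of 6 weeks. Myh11 had -0.22 ± 0.21 and -0.45 ± 0.21 on the 2 diets, and neither passed. Smtn stood at 985, 1353, 768 and 656 CPM on the normal and at 791, 561, 809 and 748 CPM on the Western diet at 22 weeks, and 5 of these 8 libraries lay above every 6-week library. Its log2 change was 0.41 ± 0.20 on the normal and 0.46 ± 0.20 on the Western diet (edgeR adjusted p = 0.0992 and 0.0723). Leaving out 1 library made Smtn pass on the normal diet for normal-diet replicate 4 at 22 weeks (0.55), and on the Western diet for normal-diet replicates 2 and 4 and Western-diet replicate 2 at 22 weeks (0.46 to 0.58). Limma on log2(FPKM + 0.5), which takes the authors' scaling, called 8 members lower on the Western diet and shifted the median of all loci to -0.21 there, against -0.02 in the edgeR fit. Mylk on the normal diet was 0.04 in the edgeR fit and -0.22 under limma.

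To set the scaling of libraries aside, each member was divided by Myh11 of the same library, a measure chosen after the values had been seen. The ratio of Tagln to Myh11 was 0.360, 0.374, 0.401 and 0.401 in the normal-diet libraries of 6 weeks and 0.361, 0.338, 0.289 and 0.425 in those on the Western diet. At 22 weeks it was 0.224, 0.193, 0.204 and 0.215 on the normal and 0.264, 0.226, 0.282 and 0.256 on the Western diet. All 8 libraries of 22 weeks lay below all 8 of 6 weeks. The ratio of Smtn to Myh11 ran the other way, from 0.183 to 0.269 over the 6-week libraries and from 0.332 to 0.402 over the 22-week libraries. The ratio of Acta2 to Myh11 ran from 1.55 to 1.92 at 6 weeks and from 1.04 to 1.41 at 22 weeks, and the Myocd ratio ran from 0.107 to 0.206 and from 0.101 to 0.172.

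**Figure D4:**
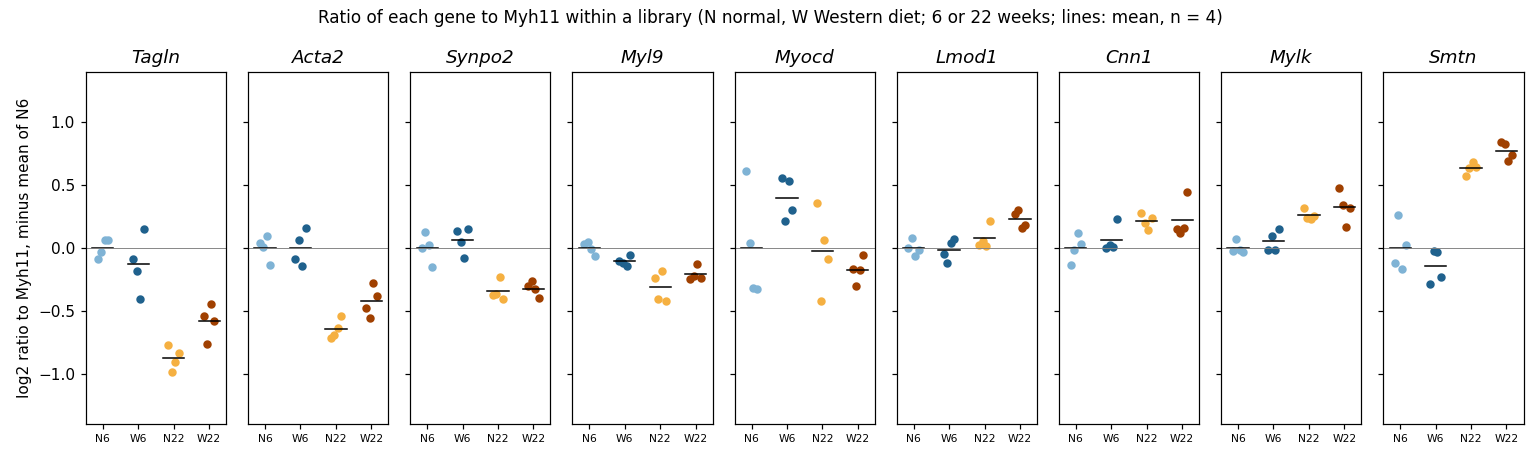
Points show, for 9 genes, the log2 ratio to Myh11 within a library minus the mean of the normal-diet libraries at 6 weeks, and lines show the mean of the 4 libraries of a group. Tagln, Acta2 and Synpo2 lay lower and Smtn and Mylk higher in the 22-week groups on both diets, and the mean time difference of Smtn was 0.78 on the log2 scale.

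Of the 9 ratios, 8 differed between 22 and 6 weeks in an exact permutation test over 4900 relabellings within diet, two-sided and adjusted over 18 tests. The smallest p that 4 libraries a group allow in this test was 0.000408, and Acta2, Tagln, Synpo2, Smtn and Mylk reached it (adjusted p = 0.00147). The ratio was lower for Tagln (-0.66 on the log2 scale), Acta2 (-0.54), Synpo2 (-0.37) and Myl9 (-0.21, exact permutation adjusted p = 0.00245). It was higher for Smtn (0.78), Mylk (0.27), Cnn1 (0.18) and Lmod1 (0.16), the last 2 with an exact permutation adjusted p of 0.00827, and Myocd did not pass (-0.30, adjusted p = 0.165). Over all loci, 53.8% had an unadjusted p under 0.05 in the same test, 12.7% as lower and 41.1% as higher, against 4 and 4 of the 9 members. All these ratios share Myh11, whose own time changes were -0.22 on the normal and -0.45 on the Western diet. Those of Mylk (0.04 and -0.18), Cnn1 (-0.02 and -0.28) and Lmod1 (-0.15 and -0.21) did not pass. Their ratios are thus higher relative to Myh11 only. Myh11 also lay closest to the mean of the other members, so ratios moving both ways are partly built in. Divided by Mylk instead, Cnn1 and Lmod1 turned to -0.08 and -0.11 and did not pass, the Acta2, Tagln, Synpo2, Myl9 and Smtn ratios passed in the same direction, and Myocd passed as lower (-0.57, exact permutation adjusted p = 0.0157). For diet within time, 0 of 9 ratios to Myh11 passed, where 34% of all loci had an unadjusted p under 0.05, and the smallest member p was 0.0963 (exact permutation), for Acta2. At 22 weeks 2 of 9 ratios, Tagln and Smtn, were higher on the Western diet without overlap, against 7.04% of loci higher and 7.19% in either direction, and at 6 weeks 0 of 9 were without overlap, against 12.1% of loci. Myh11, the divisor, itself had a log2 change of -0.51 with Western diet at 22 weeks. Divided by Mylk, the Tagln and Smtn ratios overlapped at 22 weeks, and at 6 weeks the Myl9 ratio was lower on the Western diet without overlap. For time, 7 of 9 ratios to Myh11 were without overlap on each diet, against 26.5% of loci on the normal and 36.3% on the Western diet.

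Genes that work beside the members also moved in both directions with time. They were taken from lists chosen with earlier results of these data known, so their direction is a description. Their counts stand against 24% of all loci that passed as higher and 22.6% as lower on the normal diet, and 21.9% each way on the Western diet, and no list was tested against these shares. Of 9 genes that set the phosphorylation of myosin, 5 were lower and 1 higher at 22 weeks on each diet. They include Ppp1r12a, the targeting subunit of myosin phosphatase (-0.94 ± 0.14 and -1.13 ± 0.15), and its catalytic partner Ppp1cb (-1.54 ± 0.11 and -1.28 ± 0.11), whose locus also holds Gm43312. Dapk3, a kinase that phosphorylates the light chain without calcium, rose (1.35 ± 0.09 and 1.46 ± 0.09). Of 12 other filament and cytoskeleton genes, 3 rose and 1 fell on the normal and 3 rose and 4 fell on the Western diet. Cald1 (caldesmon, which restrains actin-activated myosin) fell by 0.68 ± 0.17 and 0.70 ± 0.17, and Myh9, a non-muscle myosin heavy chain, rose by 1.003 ± 0.125 and 0.831 ± 0.125. Of 18 adhesion and dense plaque genes, 3 rose and 5 fell on the normal and 2 rose and 6 fell on the Western diet, with Itga8, the α8 integrin of smooth muscle, at -1.05 ± 0.26 and -1.27 ± 0.26. Of 10 genes of calcium, potassium channels and cGMP signalling, 0 rose, and 4 and 5 fell, among them Prkg1, the cGMP-dependent kinase (-0.95 ± 0.19 and -1.29 ± 0.20), and Gucy1a1, a subunit of the nitric oxide receptor (-0.73 ± 0.15 and -1.11 ± 0.15).

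Of 11 genes that control smooth muscle transcription, 6 rose and 2 fell at 22 weeks on each diet. Notch3, a receptor of arterial smooth muscle, averaged 89.3 ± 4.02 and 78.7 ± 3.73 CPM at 6 weeks and 284 ± 34.2 and 265 ± 26.1 CPM at 22 weeks (normal and Western diet, n = 4 each). It rose by 1.67 ± 0.10 and 1.75 ± 0.10. Mrtfa, a coactivator of serum response factor, rose by 0.84 ± 0.12 and 0.51 ± 0.12, and Klf4, a repressor of contractile genes, by 1.34 ± 0.23 and 0.73 ± 0.23. The locus named for Srf rose by 1.07 ± 0.12 and 1.06 ± 0.12, but it joins Srf with Cul9 and Mir6976 and its reads cannot be told apart between them. Mef2c fell by 0.70 ± 0.26 and 1.07 ± 0.26. In none of these 5 lists did a gene pass for diet at 6 or 22 weeks by edgeR. At 6 weeks 0 to 2 genes a list had an unadjusted p under 0.05, against 10.7% of all loci. At 22 weeks these were 5 of 10 channel and cGMP genes, 4 of 18 adhesion, 2 of 11 transcription, 1 of 12 filament and 1 of 9 myosin phosphorylation genes. The share of all loci there was 14.3%. Of the 10 channel and cGMP genes 8 had negative values at 22 weeks, with a median of -0.39.

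Genes that smooth muscle cells are known to switch on when they leave the contractile state were measured for 12 of 13 names. At 22 weeks 6 were higher than at 6 weeks on the normal and 8 on the Western diet, and 0 were lower, where 24% and 21.9% of all loci passed as higher. Thbs1 (thrombospondin-1) averaged 85.7 ± 16.4 and 92.6 ± 23.7 CPM at 6 weeks and 240.0 ± 90.5 and 433 ± 80.7 CPM at 22 weeks on the normal and Western diet (n = 4 each). Fn1 (fibronectin) averaged 2109.8 ± 292 and 1554 ± 215 CPM at 6 weeks and 2905 ± 825 and 4066 ± 572 CPM at 22 weeks. For diet at 22 weeks 11 of the 12 had positive values with a median of 0.69, 0 passed by edgeR, and 8 had an unadjusted p under 0.05, against 14.3% of all loci. Several of them, such as Spp1 and Lgals3, are also made by macrophages, whose markers Csf1r, C1qa, C1qb, Cd14 and Lyz2 rose with time on both diets while Cd68 fell. Fibroblast markers also rose with time, 4 of 7 on the normal and 3 of 7 on the Western diet with Dcn lower on both, and with a sum of 2900.3 to 3828 CPM over the 6-week and 4918 to 6745 CPM over the 22-week libraries. Mural cell markers, which smooth muscle shares with pericytes, summed to 1438 to 2432 CPM at 6 weeks and 1823 to 3134 CPM at 22 weeks, and 1 of 6 passed for time on each diet (Cspg4, higher). Brown fat markers went the other way on the normal diet, with 4 of 5 lower at 22 weeks, and 1 of 5 was lower on the Western diet. The part of these cell types in the members' change with time was not tested.

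The loci that followed the members most closely over the 16 libraries were Myh10, Sh3bgr, Ncam1, Fam129a, Chmp4c, Gm14547, Tmem47, Neo1, Limch1 and Lhfp. Their root mean square difference from the mean profile of the 10 genes was 0.10 to 0.14 on the log2 scale, against 0.62 for the median locus. For each member the difference was taken from the mean profile of the other members, and it ran from 0.07 for Myh11 to 0.49 for Smtn. Myh10, a second non-muscle myosin heavy chain, was the closest, at -0.11 and -0.39 for diet at 6 and 22 weeks and -0.22 and -0.50 for time on the normal and Western diet.

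Some members had further loci in the table. A locus on the opposite strand of Lmod1 that also names Gm22796 had log2 changes of -0.06 to 0.16 over the 4 comparisons, none of which passed. Its level was near that of the main Lmod1 locus. It averaged 245 and 235 CPM at 6 weeks and 266 and 263 CPM at 22 weeks (normal and Western diet). The main locus averaged 325 and 265 CPM at 6 weeks and 293 and 228 CPM at 22 weeks. A second, short Mylk locus on the opposite strand rose by 0.71 ± 0.19 with time on the normal diet (edgeR adjusted p = 0.00551), where the main Mylk locus stood at 0.04 ± 0.19. The 4 further tested Synpo2 loci had negative values in all 4 comparisons, from -0.99 to -0.19. Synpo2 itself was read from a locus shared with Gm43287. Strand use in the authors' counting is not given in the sources used here, so reads of overlapping loci may have been split. Summing all loci that name a member left every count of members passing as it was.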

How the data were processed

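Total RNA (10 ug) from the aorta was extracted with Trizol and sequenced on an Illumina instrument, per the labels' protocols. Reads were trimmed with cutadapt 1.9 and checked with FastQC, and GRCm38 was used, per the submitters' processing notes. No source used here names the aligner or the counter (not given in the sources). The authors deposited estimated counts and FPKM per assembled locus, and the low counts step in units of about 4, so 1 unit may not be 1 read. Columns were matched to samples by title, since the description of 1 Western-diet library at 6 weeks names another column.

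The counts, whole numbers as deposited, were tested with edgeR 4.0.16 (R 4.3.3), quasi-likelihood with TMM scaling, 1 fit over 16 libraries, for 24091 named loci with FPKM of at least 1 in at least 4 libraries. These hold 98.0% of counts. The 3714 loci without a gene name hold 0.606% of counts and were left out. P-values were adjusted by Benjamini-Hochberg over all loci, with a threshold of 0.05. The labels do not say whether libraries came from separate animals, so p-values measure only the spread between these samples. CPM are TMM-scaled. DESeq2 1.42.0, limma 3.58.1 on log2(FPKM + 0.5) and the other alternatives are in the closing section. The fit was tested on simulated data with 200 changed genes. The genes that could be named were the 10 members, genes of the other lists that passed in a comparison or, where none did, had the lowest p for diet, and the 10 loci closest to the members' mean profile. Members and lists were chosen with earlier results of these data known.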

Additional observations from a re-analysis of the deposited data

Results flagged for a closer look

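Myocd stood at 644 CPM in normal-diet replicate 1 at 6 weeks, far from the 360.3 to 381 CPM of the other 3 libraries, with a gap of 0.928 of the group's range. The ratio of Cnn1 to Myh11 was 0.123 in Western-diet replicate 4 at 6 weeks (gap 0.894 of the range) and 0.143 in Western-diet replicate 4 at 22 weeks (gap 0.881), each above the other 3 libraries of its group. Each gap passed Dixon's 95% limit for a group of 4. Chance marks about 1 in 20 groups, and 40 groups of levels and 36 of ratios were looked at.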

How the results depend on the processing

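No diet call among the members appeared under any setting run, and Acta2 and Tagln passed as lower with time on both diets in all of them. Leaving out 1 library, 0 members passed for diet, 2 to 4 for time on the normal diet (2 without normal-diet replicate 3 of either time) and 4 to 6 on the Western diet. The members' median ran from -0.35 to -0.21 for diet at 6 weeks, from -0.58 to -0.21 at 22 weeks, from -0.27 to 0.09 for the difference, from -0.42 to -0.24 for the mean, and from -0.40 to -0.11 and -0.60 to -0.36 for time. Values that changed sign ran from -0.0024 to 0.34 (Myocd, diet at 6 weeks), -0.32 to 0.0075 (Tagln, diet at 22 weeks), and for time on the normal diet from -0.23 to 0.12 (Cnn1) and -0.17 to 0.18 (Mylk). Loci passing ran from 30 to 94, 0 to 429, 3 to 74 and 28 to 246 for the 4 diet comparisons, with 0 at 22 weeks without normal-diet replicate 2 and 429 without replicate 4. Mylk for time on the normal diet was -0.039 with library totals, -0.22 and -0.21 with limma at either pseudocount and -0.010 without a filter, and limma called 8 members on the Western diet at either. Divided by Mylk, time differences of Cnn1 and Lmod1 were -0.084 and -0.11 and diet differences of Cnn1 and Synpo2 -0.023 and -0.016, and Myocd passed for time (-0.57). The cause was not tested.

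Without the 6 libraries with high markers, chosen after seeing the data, the diet median at 22 weeks was -0.72, 2 and 3 members passed for time, Cnn1 on the normal diet was 0.026, and 5, 9, 1, 16, 9079 and 5813 loci passed in the 6 comparisons. Loci passing for diet (6 weeks, 22 weeks, difference, mean) were 68, 55, 44 and 71 in the edgeR fit and 458, 829, 493 and 612 by DESeq2. They were 25 (22 weeks) and 24 (difference) with library totals, 146 and 109 (22 weeks, mean) with limma at 0.5 and 108, 147 and 116 (6 weeks, 22 weeks, mean) at 1. Without a filter they were 12, 26 and 45 (22 weeks, difference, mean), with a filter on mean FPKM 84 and with only the groups compared 0 at 22 weeks. Limma at 0.5 put the median of all loci for time at -0.16 and -0.21, and calls were higher in 34.9% and 31.3% against 51.5% and 49.9%. Library totals put it at -0.23 for time on the Western diet, with 32.8% of calls higher, and at -0.19 for the difference, with 54.2% against 79.5% higher. With library totals 37.3% against 22.1% of diet calls were higher at 6 weeks and 64.0% against 76.4% at 22 weeks. Replicate numbers did not pair the libraries (24 correlations from -0.19 to 0.11), and with the replicate block 0, 0, 0, 0, 4 and 5 members and 28, 26, 0, 33, 10782 and 10083 loci passed.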
